A study of Mus musculus with 11 samples.

Results

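The 10 genes described here are the glucocorticoid receptor Nr3c1, the related mineralocorticoid receptor Nr3c2, the enzymes Hsd11b1 and Hsd11b2 that switch glucocorticoids on and off, and 6 genes known to respond to the receptor: Fkbp5, Tsc22d3, Per1, Sgk1, Zbtb16 and Angptl4. The set is defined by gene symbol, and each symbol matched 1 of the 49671 genes of the count table. All 10 passed the filter on low counts, among 20893 genes tested. RNA came from cells sorted from the adrenals of male mice of the strain Nes-GFP, in which green fluorescent protein (GFP) reports the progenitor marker Nestin. Cells were GFP-positive or GFP-negative from the adrenal cortex or medulla: 3 libraries of GFP-positive and 3 of GFP-negative cells of the cortex, and 3 of GFP-positive and 2 of GFP-negative cells of the medulla, with no treatment named in the labels. In both cortical groups libraries 1 and 2 came from mice of about 3.5 months and library 3 from mice of about 2.5 months. Medullary GFP-positive library 1 and both medullary GFP-negative libraries came from the older mice, and medullary GFP-positive libraries 2 and 3 from the younger. The gate is a reporter and not a cell type. Tissue of 6 mice was pooled by 2 mice before the sort, and the labels tie no library to a pool. With pools of 1 age each, the ages allow separate pools for the libraries of a cortical group or of medullary GFP-positive cells, not both. Libraries of a group may thus share mice. The p-values measure the spread between these libraries, part of which may be technical.

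Glucocorticoids, in mice mainly corticosterone, are made in the adrenal cortex and reach the medulla through the blood that drains inward from the cortex. Hormone bound to the glucocorticoid receptor releases it from its chaperones, and the receptor then binds response elements in DNA and raises or lowers transcription of its targets. Corticosterone also binds the mineralocorticoid receptor, unless Hsd11b2 inactivates it within the cell, while Hsd11b1 regenerates the active hormone. In chromaffin cells of the medulla, glucocorticoid is known for supporting the enzyme that turns noradrenaline into adrenaline.

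The promoters of Sgk1, Tsc22d3, Per1 and Fkbp5 are shown because these 4 response genes were lower in medullary GFP-positive than in medullary GFP-negative cells. Each sequence is 300 bases long, from 250 bases before to 50 bases after an annotated start, read 5′ to 3′ on the gene's strand from RefSeq windows of build GRCm38.p6. For Sgk1 (chr10:21993640-21993939, plus strand) the capitals mark the palindromic glucocorticoid response element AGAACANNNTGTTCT. For Tsc22d3 (chrX:140600473-140600772, minus strand) they mark 1 arm of that palindrome, AGAACA, here on the opposite strand. For Per1 (chr11:69098699-69098998, plus strand) and Fkbp5 (chr17:28486100-28486399, minus strand) they mark the E-box CACGTG, the element bound by the circadian clock factors.
Sgk1: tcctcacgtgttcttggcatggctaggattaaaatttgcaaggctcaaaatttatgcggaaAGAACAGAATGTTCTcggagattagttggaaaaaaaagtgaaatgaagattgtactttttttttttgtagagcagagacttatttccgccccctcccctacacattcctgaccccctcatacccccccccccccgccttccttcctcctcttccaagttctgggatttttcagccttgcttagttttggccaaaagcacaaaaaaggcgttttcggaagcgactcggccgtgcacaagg
Tsc22d3: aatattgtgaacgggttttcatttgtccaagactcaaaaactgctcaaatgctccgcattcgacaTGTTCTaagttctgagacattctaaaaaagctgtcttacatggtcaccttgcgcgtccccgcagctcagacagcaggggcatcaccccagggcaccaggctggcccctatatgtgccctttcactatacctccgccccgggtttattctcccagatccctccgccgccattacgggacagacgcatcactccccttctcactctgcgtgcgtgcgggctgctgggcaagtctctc
Per1: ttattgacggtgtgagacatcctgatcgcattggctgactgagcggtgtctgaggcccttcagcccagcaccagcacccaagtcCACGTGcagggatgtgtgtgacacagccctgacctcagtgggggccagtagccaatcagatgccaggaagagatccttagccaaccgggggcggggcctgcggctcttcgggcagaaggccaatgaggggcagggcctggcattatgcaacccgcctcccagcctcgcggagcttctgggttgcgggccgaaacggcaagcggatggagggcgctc
Fkbp5: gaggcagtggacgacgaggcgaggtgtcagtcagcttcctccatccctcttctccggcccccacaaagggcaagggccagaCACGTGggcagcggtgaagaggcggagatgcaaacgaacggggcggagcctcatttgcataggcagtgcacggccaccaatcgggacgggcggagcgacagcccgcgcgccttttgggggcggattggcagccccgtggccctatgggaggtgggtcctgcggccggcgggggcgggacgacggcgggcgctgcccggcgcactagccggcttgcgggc
The windows were searched on both strands, and 14 windows of 6 members were in the table: 6 of Sgk1, 3 of Tsc22d3, 2 of Per1 and 1 each of Fkbp5, Nr3c2 and Hsd11b1. The full element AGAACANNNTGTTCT lay in 3 of 32851 windows of this length (0.00913%), 1 of them the Sgk1 window shown, where it began 189 bases before the start. A shorter form, GNACANNNTGTNC, lay in 0.475% of windows and, among the members, at the same place in Sgk1. The single arm AGAACA, which the full element also contains, lay in 19% of windows, among them 3 of Sgk1 and 1 of Tsc22d3, the latter 185 bases before the start. The E-box lay in 7.15% of windows, among them 1 each of Per1, Fkbp5 and Sgk1. The cyclic AMP response element TGACGTCA, found in 1.79% of windows, was in none of the 14. These matches describe the letters of the windows only, and response elements of these genes outside the windows were not searched.

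Total counts lay between 18500690 and 29204212 per library, so that 3 counts correspond to 0.104 to 0.157 CPM (CPM are counts scaled to the library size). Reads carry no molecular identifiers, so counting floors cover counting error only. Of the cell type markers, chromaffin genes such as Th and Dbh summed to 5915 to 12251 CPM in the 5 medullary libraries against 0.945 to 173 CPM in the 6 cortical ones, and Pnmt had no count in either cortical group. The steroid cell markers summed to 64330 to 73900 CPM in cortical GFP-positive and 35746 to 40417 CPM in cortical GFP-negative cells, but also to 8677 to 42210 CPM in the medullary libraries, so the medullary samples held steroid cell transcript. Macrophage markers summed to 20483 to 21428 CPM in medullary GFP-negative cells, against 435 to 1271 CPM in medullary GFP-positive, 3686 to 5428 CPM in cortical GFP-negative and 56.8 to 294 CPM in cortical GFP-positive cells. Genes known to respond to tissue dissociation, such as Fos, Jun and Atf3, summed to 17844 to 21503 CPM in medullary GFP-negative cells and to 3618 to 7054 CPM in the other 3 groups. Not every gene of that list followed its sum. Jun stood at a mean of 375 CPM in medullary GFP-negative and 320 CPM in medullary GFP-positive cells (edgeR adjusted p = 0.499). In such bulk samples fewer cells of a type and less RNA per cell cannot be told apart.

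**Figure D1:**
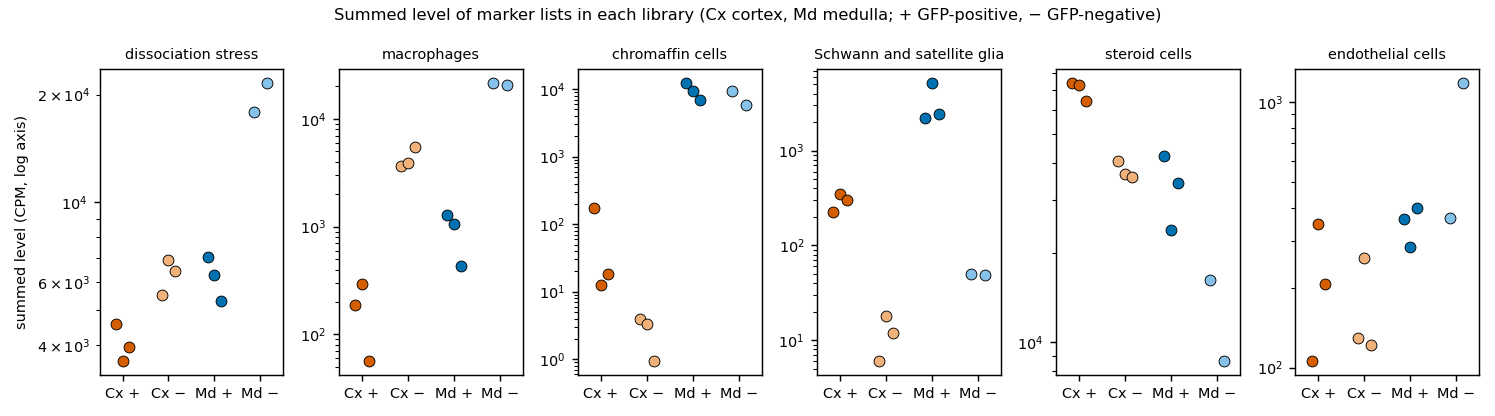
Summed level (CPM, log axis) of 6 marker lists in each of the 11 libraries, 1 point per library, by group. Both medullary GFP-negative libraries lie above 17844 CPM in the stress list and above 20483 CPM in the macrophage list, higher than all other libraries.

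Members were called in all 4 comparisons. Of the 10 members, 5 were lower in cortical than in medullary GFP-positive cells and none was higher by edgeR's quasi-likelihood test at an adjusted p below 0.05, where 15.5% of all genes tested were called (9.45% lower and 6.04% higher). Between GFP-negative cells, 6 were lower in the cortex and none higher, where 18.6% of all genes were called (10.6% lower and 8.06% higher). At an unadjusted p below 0.05 edgeR gave 5 members in the GFP-positive and 7 in the GFP-negative comparison. Of all genes, between 12.3% and 32.5% lay below that p in the first and between 21.7% and 44.4% in the second. DESeq2 and limma-voom called none higher in cortical GFP-positive cells. Each called 7 members between GFP-negative cells, where 28.4% of all genes were called with DESeq2 and 24.4% with limma-voom. Of those 7, 1 was higher with DESeq2. Between the gates, 4 members were lower and 1 was higher in medullary GFP-positive than GFP-negative cells, where 21.4% of all genes were called (11.1% lower and 10.2% higher). In the cortex 1 was lower and 1 higher in GFP-positive cells, where 14.7% of all genes were called (7.59% lower and 7.14% higher). The 2 comparisons between tissues share no libraries with each other, but each shares its libraries with the comparisons between gates.

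**Figure D2:**
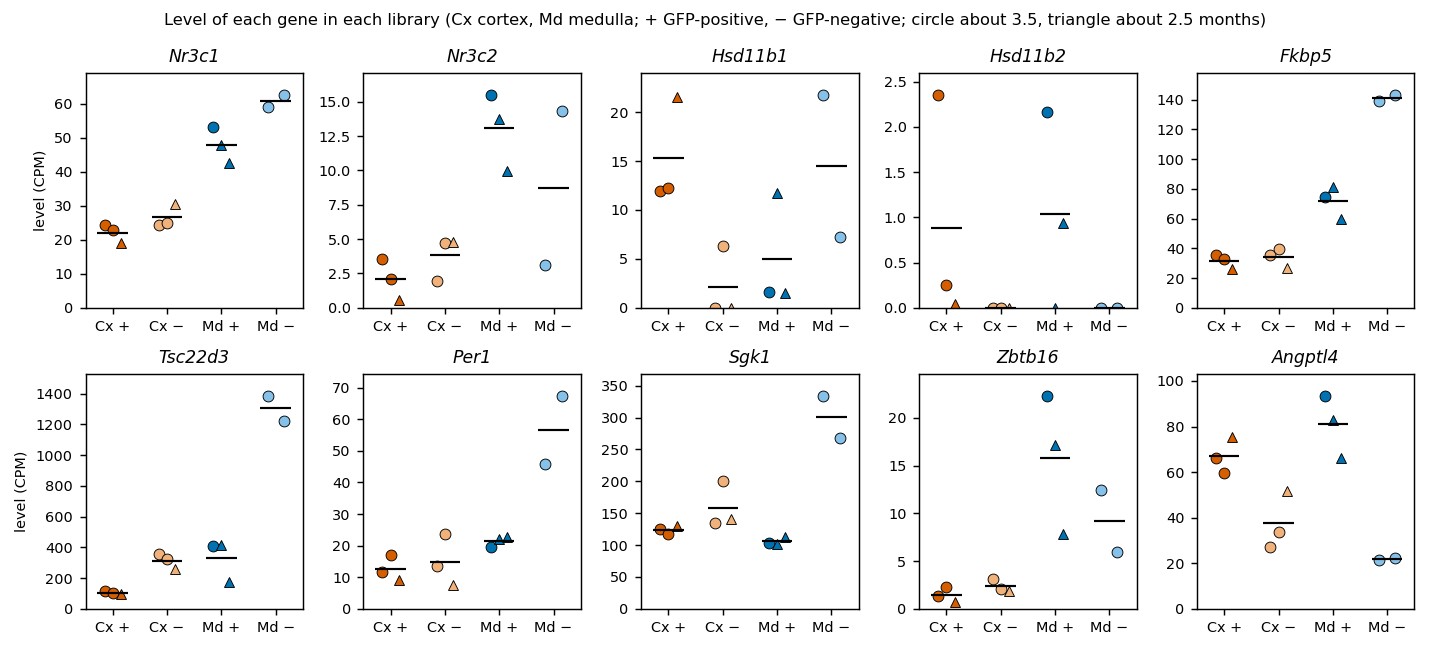
Level (CPM, axis from 0) of each of the 10 genes in each library, 1 point per library, with the group mean as a line. Both medullary GFP-negative libraries are the highest for Nr3c1, Fkbp5, Tsc22d3, Per1 and Sgk1 and the lowest for Angptl4.

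Among the receptors, Nr3c1 (ENSMUSG00000024431, chromosome 18, 39410545 to 39491301, mm10), the receptor through which glucocorticoids act on most cells, stood at 24.4, 22.9 and 19.1 CPM in cortical GFP-positive libraries 1 to 3 and at 24.4, 24.8 and 30.7 CPM in cortical GFP-negative ones. It stood at 53.1, 47.8 and 42.7 CPM in medullary GFP-positive libraries and at 59.2 and 62.7 CPM in medullary GFP-negative ones. All 5 medullary libraries lay above all 6 cortical ones. Cortical GFP-positive cells were 2.16-fold lower than medullary ones (log2 difference -1.11, SE 0.16, 95% interval -1.47 to -0.76, edgeR adjusted p = 0.00174). Cortical GFP-negative cells were 2.29-fold lower (log2 difference -1.20, SE 0.174, edgeR adjusted p = 0.00212). Between the gates the receptor did not pass the test in either tissue, with log2 differences of -0.27 (95% interval -0.62 to 0.08, edgeR adjusted p = 0.292) in the cortex and -0.35 (95% interval -0.74 to 0.04, adjusted p = 0.188) in the medulla.

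Nr3c2 (ENSMUSG00000031618, chromosome 8, 76899442 to 77245012), which binds both aldosterone and corticosterone, was less abundant. Its levels were 3.56, 2.10 and 0.585 CPM in cortical GFP-positive libraries, 1.94, 4.74 and 4.80 CPM in cortical GFP-negative, 15.5, 13.7 and 9.97 CPM in medullary GFP-positive and 3.10 and 14.3 CPM in medullary GFP-negative libraries. The 3 medullary GFP-positive libraries lay above every cortical library, whereas 1 of the 2 medullary GFP-negative libraries lay within the cortical range. Cortical GFP-positive cells were 6.26-fold lower than medullary ones (log2 difference -2.65, SE 0.714, edgeR adjusted p = 0.0321). That call ended when library 2 or 3 of the cortical or library 1 or 2 of the medullary GFP-positive cells was left out (adjusted p of 0.0728 to 0.0852). It also ended with the replicate number as a block (adjusted p = 0.0503) and with libraries of the older mice only (adjusted p = 0.269), with a log2 difference of -3.26 to -2.21 over the alternatives. Between GFP-negative cells it did not pass the test (log2 difference -1.19, 95% interval -2.83 to 0.45, edgeR adjusted p = 0.295), nor between the gates of the cortex (log2 difference -0.87, adjusted p = 0.436) or of the medulla (log2 difference 0.59, adjusted p = 0.642). Gm10649, which overlaps Nr3c2 on the opposite strand, reached 0.347 CPM at most.

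Compared per kilobase of transcript, the unit in which genes can be set side by side, Nr3c1 exceeded Nr3c2 in every group. Its mean level was 2.98 ± 0.367 CPM per kb in cortical GFP-positive cells against 0.322 ± 0.230 for Nr3c2 (SD, n = 3). In medullary GFP-positive cells the mean levels were 6.45 ± 0.704 and 2.02 ± 0.438 CPM per kb (SD, n = 3). In medullary GFP-negative cells they were 8.21 ± 0.336 and 1.35 ± 1.23 CPM per kb (SD, n = 2), and in cortical GFP-negative cells 3.59 ± 0.470 and 0.591 ± 0.252 CPM per kb (SD, n = 3).

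Of the enzymes, Hsd11b1 (ENSMUSG00000016194, chromosome 1, 193221634 to 193264075), which turns the inactive 11-keto steroid back into corticosterone, varied widely between libraries of a group. It stood at 12.0, 12.3 and 21.6 CPM in cortical GFP-positive libraries, while cortical GFP-negative library 2 stood at 6.31 CPM and libraries 1 and 3 had no count. The medullary GFP-positive libraries stood at 1.65, 11.7 and 1.51 CPM and the medullary GFP-negative ones at 21.8 and 7.26 CPM. The cortical gates did not overlap, but the difference did not pass the test (log2 difference 2.85, SE 1.54, 95% interval -0.58 to 6.28, edgeR adjusted p = 0.249). It did with limma-voom (adjusted p = 0.0405), and with edgeR (adjusted p = 0.00938) when library 2 of the cortical GFP-negative cells, the one with counts, was left out. DESeq2 gave Hsd11b1 no adjusted p in any comparison, nor did the authors' deposited tables. Between GFP-negative cells the log2 difference of cortex minus medulla was -2.78 (SE 1.63, edgeR adjusted p = 0.265), and this too was called (adjusted p = 0.0121) when cortical GFP-negative library 2 was left out and with limma-voom (adjusted p = 0.0349). Neither the medullary gates (log2 difference -1.53, adjusted p = 0.548) nor the GFP-positive cells of the tissues (log2 difference 1.61, adjusted p = 0.534) passed the test. Leaving out 1 library moved the difference to between -3.19 (without medullary GFP-positive library 2) and -0.53 (without medullary GFP-negative library 1) for the medullary gates. For the GFP-positive cells the difference was 3.26 without medullary GFP-positive library 2. The protocol marks no strand, and the gene overlaps Lamb3 on the opposite strand, which reached 0.877 CPM at most.

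Hsd11b2 (ENSMUSG00000031891, chromosome 8, 105518755 to 105523988), which inactivates corticosterone, had 120 counts in all, every one of them in a GFP-positive library. Cortical GFP-positive libraries held 53, 6 and 1 counts (2.36, 0.258 and 0.0450 CPM) and medullary GFP-positive libraries 42, 0 and 18 (2.17, 0 and 0.939 CPM). The 3 cortical and 2 medullary GFP-negative libraries held none. With 3 counts taken as the limit for the pooled GFP-negative libraries of each tissue, the level was at least 23.4-fold higher in cortical GFP-positive and at least 15.5-fold higher in medullary GFP-positive cells. Neither difference passed the test (edgeR adjusted p = 0.111 and 0.143), although the cortical one did with DESeq2 (adjusted p = 0.0362, against 0.0558 in the medulla). In each tissue most of the counts came from library 1. Without library 1 the bounds were at least 4.07-fold in the cortex (7 counts) and at least 6.51-fold in the medulla (18 counts). Cortical GFP-positive library 1 also held 811 CPM of erythroid markers, against 0.135 and 0.215 CPM in the other 2 libraries of its group, and 173 CPM of chromaffin markers, against 12.5 and 18.6 CPM. Whether these go with its Hsd11b2 counts was not tested. Medullary GFP-positive library 2, which had no count, overlaps with the GFP-negative libraries.

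Among the response genes, Tsc22d3 (ENSMUSG00000031431, chromosome X, 140539528 to 140600659), which encodes the glucocorticoid-induced leucine zipper protein GILZ that dampens inflammatory signalling, had the most counts of the 10 members. It stood at 116, 100.5 and 93.4 CPM in cortical GFP-positive libraries and at 358, 324 and 257 CPM in cortical GFP-negative ones. In the medulla it stood at 408, 418 and 172 CPM in GFP-positive and at 1388 and 1224 CPM in GFP-negative libraries. Every GFP-negative library lay above every GFP-positive library of its tissue, and every medullary library above every cortical library of the same gate. GFP-positive cells were 3.03-fold lower in the cortex (log2 difference -1.60, SE 0.292, edgeR adjusted p = 0.00527) and 3.93-fold lower in the medulla (log2 difference -1.97, SE 0.315, adjusted p = 0.00175). Cortical cells were 3.22-fold lower than medullary cells in the GFP-positive gate (log2 difference -1.69, SE 0.293, edgeR adjusted p = 0.00433) and 4.17-fold lower in the GFP-negative gate (log2 difference -2.06, SE 0.316, adjusted p = 0.00266). It was the only member called in all 4 comparisons, and it stayed called in each under all 19 alternatives run (adjusted p of at most 0.0236). Its gate difference was not shown to differ between the tissues (interaction log2 0.37, 95% interval -0.57 to 1.32, edgeR adjusted p = 0.732).

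Fkbp5 (ENSMUSG00000024222, chromosome 17, 28399095 to 28517524) encodes a co-chaperone that holds the receptor in a state of low hormone affinity, so that its induction forms a short feedback loop. It stood at 35.6, 32.7 and 26.0 CPM in cortical GFP-positive libraries and at 35.2, 39.2 and 27.1 CPM in cortical GFP-negative ones. In the medulla it stood at 74.3, 81.1 and 59.7 CPM in GFP-positive and at 139 and 143 CPM in GFP-negative libraries. The cortical gates overlapped and the medullary ones did not. The cortical gates did not differ by the test (log2 difference -0.10, 95% interval -0.51 to 0.30, edgeR adjusted p = 0.756), and the sign turned without cortical GFP-positive library 3 (0.02) or library 2 of the cortical GFP-negative cells (0.01). In the medulla GFP-positive cells were 1.97-fold lower (log2 difference -0.98, SE 0.2, edgeR adjusted p = 0.00638). Cortical cells were 2.28-fold lower than medullary cells in the GFP-positive gate (log2 difference -1.19, SE 0.184, edgeR adjusted p = 0.00253) and 4.18-fold lower in the GFP-negative gate (log2 difference -2.06, SE 0.201, adjusted p = 0.000417). The difference between the 2 gate effects did not pass the test (interaction log2 0.87, SE 0.271, edgeR adjusted p = 0.142), although it did with DESeq2 (adjusted p = 0.0455).

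Per1 (ENSMUSG00000020893, chromosome 11, 69095217 to 69109960), a repressor of the circadian clock that glucocorticoids also induce directly, stood at 11.6, 17.0 and 8.96 CPM in cortical GFP-positive libraries and at 13.5, 23.5 and 7.48 CPM in cortical GFP-negative ones. It stood at 19.6, 22.1 and 22.6 CPM in medullary GFP-positive and at 45.7 and 67.5 CPM in medullary GFP-negative libraries. Both medullary GFP-negative libraries lay above all 9 others, and the cortical gates overlapped. Medullary GFP-positive cells were 2.64-fold lower than GFP-negative ones (log2 difference -1.40, SE 0.415, edgeR adjusted p = 0.0365). That call ended without any 1 of the 5 medullary libraries (adjusted p of 0.0553 to 0.205) and with age as a factor (log2 difference -0.96, adjusted p = 0.183) or older mice only (log2 difference -1.53, adjusted p = 0.119). Between GFP-negative cells the cortex was 3.81-fold lower (log2 difference -1.93, SE 0.418, edgeR adjusted p = 0.0115), which was not called without medullary GFP-negative library 2 (adjusted p = 0.093). Between GFP-positive cells Per1 did not pass the test (log2 difference -0.78, 95% interval -1.63 to 0.07, edgeR adjusted p = 0.212). Nor did it between the cortical gates (log2 difference -0.25, edgeR adjusted p = 0.721), where the sign turned without cortical GFP-negative library 2 (0.25).

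Sgk1 (ENSMUSG00000019970, chromosome 10, 21882184 to 21999903), a kinase that raises sodium transport and is induced through both receptors, stood at 125.5, 117 and 129 CPM in cortical GFP-positive libraries and at 134, 199.7 and 140.7 CPM in cortical GFP-negative ones. It stood at 104, 102 and 112 CPM in medullary GFP-positive and at 335 and 268 CPM in medullary GFP-negative libraries. The medullary GFP-positive libraries were the lowest of the 11 and the medullary GFP-negative ones the highest. In the medulla GFP-positive cells were 2.84-fold lower (log2 difference -1.51, SE 0.178, edgeR adjusted p = 0.000328), a call kept under all 19 alternatives (adjusted p of at most 0.032). The cortical gates did not overlap, but their difference did not pass the test (log2 difference -0.35, 95% interval -0.71 to 0.01, edgeR adjusted p = 0.175). Of the 10 members, Sgk1 was the one whose gate difference differed between the tissues (interaction log2 1.16, SE 0.24, edgeR adjusted p = 0.0454), where 1.61% of all genes were called (0.857% in this direction and 0.756% in the other). This held under 4 of 18 alternatives (adjusted p from 0.000442 to 0.382), and no single library other than cortical GFP-negative library 2 could be left out without losing it (adjusted p of 0.0584 to 0.095 when the others were). Cortical GFP-negative cells were 1.91-fold lower than medullary ones (log2 difference -0.93, SE 0.177, edgeR adjusted p = 0.00687). The GFP-positive cells of the tissues did not differ by the test (log2 difference 0.22, 95% interval -0.13 to 0.58, edgeR adjusted p = 0.41).

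Zbtb16 (ENSMUSG00000066687, chromosome 9, 48654297 to 48836222) encodes the zinc finger repressor PLZF, which glucocorticoids induce in many cell types. It stood at 1.29, 2.28 and 0.675 CPM in cortical GFP-positive libraries and at 3.13, 2.06 and 1.81 CPM in cortical GFP-negative ones. In the medulla it stood at 22.3, 17.2 and 7.83 CPM in GFP-positive and at 12.4 and 5.97 CPM in GFP-negative libraries. All 5 medullary libraries lay above all 6 cortical ones, and the gates overlapped in both tissues. Cortical GFP-positive cells were 11.1-fold lower than medullary ones (log2 difference -3.47, SE 0.57, edgeR adjusted p = 0.00328), the largest difference called among the members and one that all 19 alternatives kept (adjusted p of at most 0.0424). Between GFP-negative cells the cortex was 3.93-fold lower (log2 difference -1.98, SE 0.572, edgeR adjusted p = 0.0378), a call that ended without any 1 of the 5 GFP-negative libraries (adjusted p of 0.0565 to 0.207). Neither gate comparison passed the test (log2 difference -0.72, edgeR adjusted p = 0.408, in the cortex and 0.78, adjusted p = 0.389, in the medulla).

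Angptl4 (ENSMUSG00000002289, chromosome 17, 33773750 to 33781575), a secreted inhibitor of lipoprotein lipase that fasting, fatty acids and hypoxia also induce, went the other way between the gates. It stood at 66.1, 59.6 and 75.2 CPM in cortical GFP-positive libraries and at 27.2, 33.5 and 51.8 CPM in cortical GFP-negative ones. In the medulla it stood at 93.6, 82.9 and 66.3 CPM in GFP-positive and at 21.4 and 22.4 CPM in GFP-negative libraries. The lowest GFP-positive library, at 59.6 CPM, exceeded the highest GFP-negative one, at 51.8 CPM, so that the gates did not overlap in either tissue. GFP-positive cells were 3.70-fold higher in the medulla (log2 difference 1.89, SE 0.275, edgeR adjusted p = 0.00109), under all 19 alternatives as well (adjusted p of at most 0.0115). In the cortex they were 1.79-fold higher (log2 difference 0.84, SE 0.23, edgeR adjusted p = 0.0362), a call lost when any 1 of the 3 GFP-positive libraries or GFP-negative library 1 or 2 of the cortex was left out (adjusted p of 0.0549 to 0.111). It also missed the threshold with total counts in place of TMM scaling (adjusted p = 0.0634) and with the replicate number as a block (adjusted p = 0.0522). The difference of the 2 gate effects did not pass the test (interaction log2 -1.05, 95% interval -1.82 to -0.28, edgeR adjusted p = 0.167). Between the tissues it was not called in GFP-positive cells (log2 difference -0.27, edgeR adjusted p = 0.491). In GFP-negative cells the log2 difference was 0.78 (SE 0.263, edgeR adjusted p = 0.0656), which passed with total counts alone (adjusted p = 0.0476), with DESeq2 (adjusted p = 0.0418) and when library 1 of the cortical GFP-negative cells was left out (adjusted p = 0.0486).

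**Figure D3:**
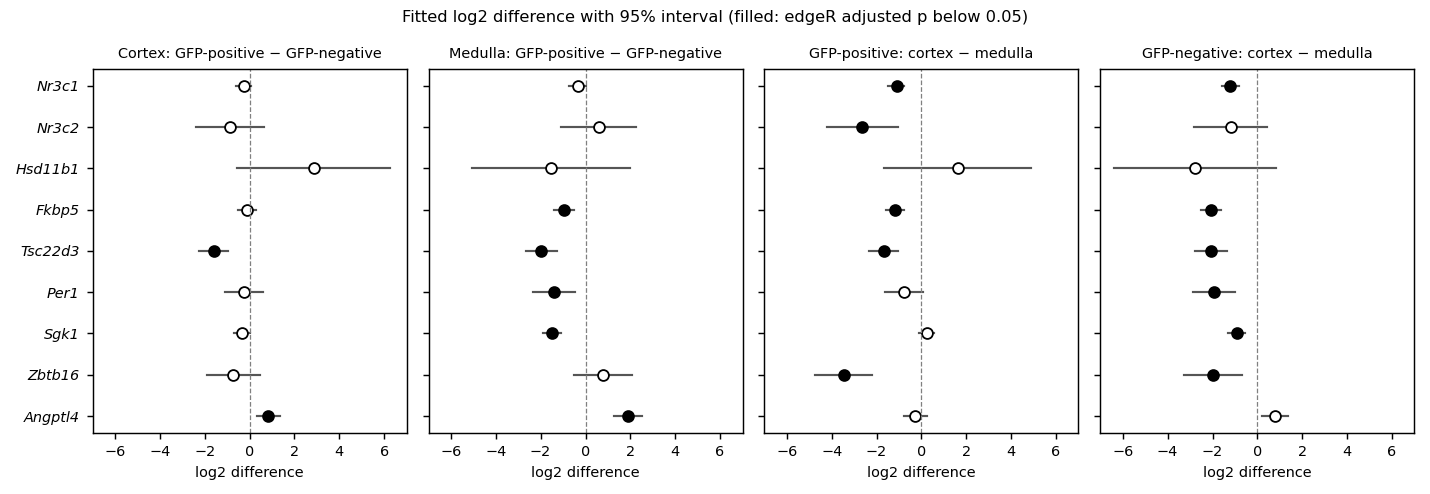
Fitted log2 difference (points) with its 95% interval (lines) for 9 genes in the 4 comparisons, filled where edgeR's adjusted p was below 0.05. Hsd11b2 is left out because its GFP-negative groups held no count, and Angptl4 is the member called higher in GFP-positive cells of both tissues.

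The response genes did not all move the same way between the gates. In the medulla Fkbp5, Tsc22d3, Per1 and Sgk1 fell in GFP-positive cells, Angptl4 rose, and Zbtb16 did not pass the test. The groups of 6 of the 10 members did not overlap there, where 48.1% of all genes tested did not. In the cortex only Tsc22d3 and Angptl4 were called, and 6 members did not overlap, against 38.2% of all genes. Among these 6, the nearest libraries of the gates stood at 24.38 and 24.44 CPM for Nr3c1. For Hsd11b2 they held 1 count and none, so both gaps are within counting error. Between the tissues 8 members did not overlap in GFP-positive cells, against 34.5% of all genes, and 8 in GFP-negative cells, against 49.5%. The receptor Nr3c1 was called between the tissues in both gates, as were Fkbp5, Tsc22d3 and Zbtb16.

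Other values moved with these differences. Of all genes tested 21.4% were called between the medullary gates and 14.7% between the cortical gates. The share was 15.5% between GFP-positive cells of the tissues, 18.6% between GFP-negative cells and 1.61% in the interaction. The dissociation stress genes summed to 17844 to 21503 CPM in medullary GFP-negative against 5302 to 7054 CPM in medullary GFP-positive libraries. Of the 18, 13 were lower in medullary GFP-positive cells and none higher. Without medullary GFP-negative library 2 there were 7 calls among them, where 13.1% of all genes were called. All 12 macrophage markers were lower in medullary GFP-positive cells, with none at 0 in either group. In the cortex 8 of the 18 stress genes were lower and 2, Jun and Jund, higher in GFP-positive cells, and 11 of 12 macrophage markers were lower. The stress genes had 6 calls when GFP-positive library 2 or GFP-negative library 3 of the cortex was left out. Of all genes 10.6% and 9.44% were then called. Between the tissues 10 stress genes were lower and 1 higher in cortical GFP-positive cells, and 13 were lower and 1 higher in cortical GFP-negative cells. The share of counts from mitochondrially encoded genes was 9.61% to 15.2% in medullary GFP-positive and 4.08% to 5.14% in medullary GFP-negative libraries, and 10.6% to 16.7% against 7.03% to 7.30% in the cortical gates. Glial markers summed to 2211 to 5153 CPM in medullary GFP-positive and 49.1 to 49.9 CPM in medullary GFP-negative libraries, where Sox10 and Foxd3 were at 0. Markers of the zona glomerulosa, the outer cortical layer that makes aldosterone, summed to 140 to 241 CPM in medullary GFP-positive against 2322 to 3968 CPM in medullary GFP-negative libraries, and to 1393 to 2025 against 6181 to 7846 CPM in the cortical gates. All 7 were lower in medullary GFP-positive and 5 of the 7 in cortical GFP-positive cells, and 3 were called in the interaction. Of 10 pericyte and smooth muscle markers 6 were higher in cortical and 3 in medullary GFP-positive cells, and none was at 0 in any group. The part of stress, of cell makeup and of RNA quality in the differences of Tsc22d3, Fkbp5, Per1, Sgk1 and Angptl4 was not tested.

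Age goes partly with the gate in the medulla, where 2 of 3 GFP-positive libraries and neither GFP-negative library came from the younger mice. Among libraries of the older mice alone, with 1 medullary GFP-positive library assumed to vary like the other groups, 3 of the 10 members were called between the medullary gates: Tsc22d3 and Sgk1 lower and Angptl4 higher. Of all genes 8.5% were then called there, against 21.4% with every library. Fkbp5 then had a log2 difference of -0.93 (edgeR adjusted p = 0.051). Between GFP-positive cells of the older mice 3 members were called, where 2.64% of all genes were, and Nr3c1 was not (log2 difference -1.17, edgeR adjusted p = 0.0536). Between GFP-negative cells of the older mice 4 were called, where 9.73% of all genes were, and Sgk1 was not (log2 difference -0.85, edgeR adjusted p = 0.0726).

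Set side by side per kilobase, Tsc22d3 was the most abundant member in the GFP-negative groups and in medullary GFP-positive cells, with mean levels of 72.2 ± 11.9 CPM per kb in cortical GFP-negative (SD, n = 3), 301 ± 26.7 in medullary GFP-negative (SD, n = 2) and 76.6 ± 32.0 in medullary GFP-positive cells (SD, n = 3). In cortical GFP-positive cells the mean levels were 25.3 ± 1.28 CPM per kb for Sgk1, 23.8 ± 2.69 for Tsc22d3 and 20.4 ± 2.38 for Angptl4 (SD, n = 3). Sgk1 and Tsc22d3 lay within their spread of each other, while every Sgk1 value lay above every Angptl4 value there. Fkbp5 stood at 4.94 to 22.2 CPM per kb and Per1 at 2.22 to 10.1 CPM per kb over the 4 group means. Zbtb16 stood between 0.268 and 2.99 CPM per kb.

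In the authors' deposited tables, which cover 3 of these comparisons, 2 members had an adjusted p below 0.05. From its statistic the authors' test behaves as one against an absolute log2 fold change above 1, and 3.64%, 4.09% and 6.13% of genes with an adjusted p passed it in the cortical gates, the GFP-positive cells and the medullary gates. In the authors' deposited table Zbtb16 had a log2 fold change of -3.37 (adjusted p = 0.000174) in cortical against medullary GFP-positive cells. In the authors' deposited table Angptl4 had a log2 fold change of 1.84 (adjusted p = 0.0375) between the medullary gates. The authors' deposited table gave Tsc22d3 -1.96 (adjusted p = 0.0727) and Sgk1 -1.52 (adjusted p = 0.162) there.

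A further 33 genes known to be induced by glucocorticoids, of which 31 were tested, were described as a list. In cortical GFP-positive cells 9 were higher and 4 lower than in GFP-negative cells, with a median log2 difference of 0.57. Over all genes tested the median was 0.03, and 14.7% were called. Klf15, a metabolic transcription factor, rose by 3.15 on the log2 scale (SE 0.527, edgeR adjusted p = 0.00339) and Bcl6, a repressor, by 2.57 (SE 0.649, adjusted p = 0.0253), while the lipid droplet gene Plin4 had 438 counts against none, at least 171-fold higher. Leaving out library 1 of the cortical GFP-negative cells left 8 calls in the list. In the medulla 8 were higher and 7 lower in GFP-positive cells, with a median of -0.18 against 0.09 over all genes, of which 21.4% were called. Plin4 (log2 difference 4.93, SE 0.786), Pdk4, a brake on glucose oxidation (4.48, SE 0.953), and Klf15 (3.41, SE 0.62) rose most there (edgeR adjusted p of 0.00323 to 0.00795). There were 8 calls without medullary GFP-negative library 2, where 13.1% of all genes were called. Plin4 is also an adipocyte marker. The 9 adipocyte markers summed to 59.4 to 202 CPM in cortical GFP-positive, 49.5 to 87.7 in cortical GFP-negative, 68.5 to 88.7 in medullary GFP-positive and 85.1 to 181 CPM in medullary GFP-negative libraries. Of them Fabp4 stood at a mean of 84.0 against 26.9 CPM in the cortical gates (edgeR adjusted p = 0.17), Plin1 was lower in GFP-positive cells of both tissues, and Cidec was at 0 in every group and Adipoq in all but medullary GFP-positive cells. The part of adipocyte transcript in the Plin4 difference was not tested.

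Between GFP-positive cells 11 of these 31 genes were lower and 2 higher in the cortex, with a median log2 difference of -0.86 against -0.03 over all genes. Of all genes 15.5% were called there and 18.6% between GFP-negative cells. Tgm2, a transglutaminase, stood at 4.32 ± 2.08 against 96.9 ± 58.5 CPM (log2 difference -4.48, SE 0.553, edgeR adjusted p = 0.000823). Pdk4 fell by 3.51 on the log2 scale (SE 0.76, edgeR adjusted p = 0.0126) and Cebpd, a transcription factor, by 2.79 (SE 0.345, adjusted p = 0.000826). Between GFP-negative cells 15 were lower and 1 higher in the cortex, with a median of -1.25 against -0.02 over all genes. Without medullary GFP-negative library 2, 8 were called, where 6.28% of all genes were. Arl4d, a small GTPase gene, fell by 4.03 on the log2 scale (SE 0.848, edgeR adjusted p = 0.0104) and Anxa1, which encodes an inhibitor of inflammation, by 3.06 (SE 0.75, adjusted p = 0.0195), while Plin4 had no count in the cortex and 19 in the medulla, at least 9.67-fold lower. Dusp1 of this list is also a stress gene, and Per2 and Per3 are also clock genes.

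**Figure D4:**
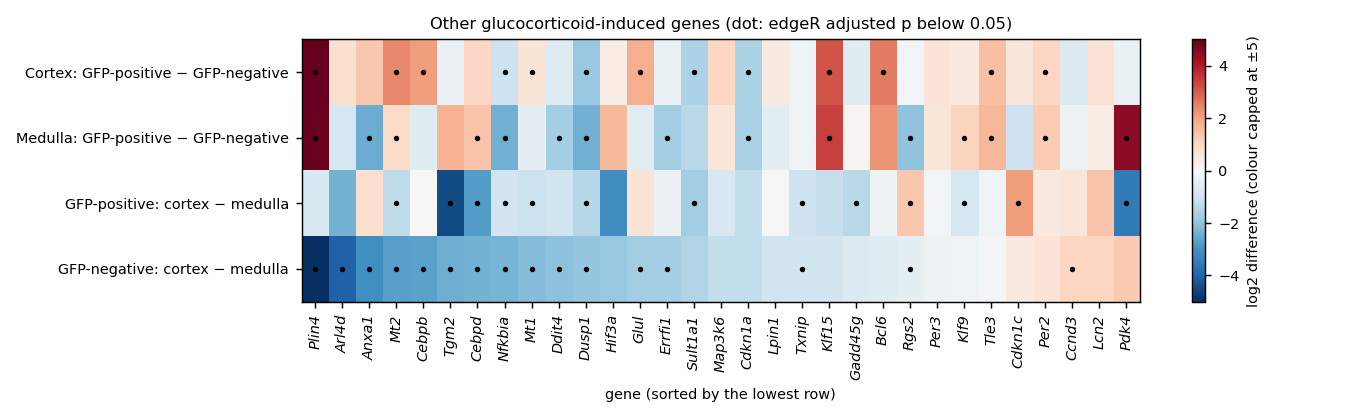
Fitted log2 difference (colour, capped at 5 in either direction) of the 31 other glucocorticoid-induced genes tested, in columns, for the 4 comparisons, in rows. Dots mark an edgeR adjusted p below 0.05, which 15 genes in the lower direction and 1 in the higher direction have in the GFP-negative row, against 9 higher and 4 lower between the cortical gates.

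Of a list of 29 genes, mostly receptor chaperones and coregulators but also Ipo13 and H6pd, 3 were called in each gate comparison. Of all genes 14.7% were called in the cortex and 21.4% in the medulla. In cortical GFP-positive cells 3 were higher (8 with DESeq2 in all), with Bag1, a co-chaperone of Hsp70, higher by 1.12 on the log2 scale (SE 0.16, edgeR adjusted p = 0.00152), beside a list median of -0.16. In medullary GFP-positive cells 1 was higher and 2 were lower, with a median of -0.23: the coactivator Ncoa3 fell by 2.15 on the log2 scale (SE 0.368, edgeR adjusted p = 0.00255) and the Hsp40 gene Dnajb1 by 1.76 (SE 0.257, adjusted p = 0.0011). Leaving out library 2 of the cortical GFP-positive cells gave that list 6 calls, and leaving out library 1 of the cortical GFP-negative cells gave it 5. In cortical against medullary cells 1 was higher and 2 were lower in the GFP-positive gate (1 call without medullary GFP-positive library 2), and 4 were lower in the GFP-negative gate (2 calls without cortical GFP-negative library 3 or medullary GFP-negative library 2, and 8 with DESeq2 or limma-voom). Dnajb1 was lower in the cortex in both gates (log2 difference -1.39, edgeR adjusted p = 0.00408, and -2.65, adjusted p = 0.000432). Between the tissues the list median was 0.27 in GFP-positive and -0.01 in GFP-negative cells, where 15.5% and 18.6% of all genes were called.

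Of a list of 12 genes, mostly of sodium transport regulated by mineralocorticoids but also Kcnj1 and Zbtb20, 9 were tested. Their median log2 difference was 0.27 between the cortical and 0.15 between the medullary gates, against 0.03 and 0.09 over all genes. For cortex minus medulla it was -0.27 in GFP-positive and -0.37 in GFP-negative cells, against -0.03 and -0.02. Of all genes 14.7%, 21.4%, 15.5% and 18.6% were called in these 4 comparisons. In the cortex 2 of the 9 were higher and 3 lower in GFP-positive cells. Among the lower were Atp1b1, a sodium pump subunit (log2 difference -1.36, SE 0.21, edgeR adjusted p = 0.00231), and Nedd4l, a ubiquitin ligase that Sgk1 inhibits (-1.35, SE 0.397, adjusted p = 0.046). In the medulla 1 was higher and 2 were lower, with Nedd4l again lower (log2 difference -1.52, SE 0.424, edgeR adjusted p = 0.0286). In cortical GFP-positive cells 4 were lower than in medullary ones and none higher. In cortical GFP-negative cells 4 were lower and 1 was higher. Scnn1b, a subunit of the epithelial sodium channel, had no count in the cortical libraries against 582 counts in medullary GFP-positive and 87 in medullary GFP-negative ones, at least 196-fold and 44.3-fold lower. The list's calls numbered 2 or 3 in the cortical gates without any 1 of the 6 cortical libraries, and 1 in the medullary gates without medullary GFP-positive library 2 or 3 or medullary GFP-negative library 2. They numbered 1 or 2 in GFP-positive cells without any 1 library other than medullary GFP-positive library 3, and 1 to 3 in GFP-negative cells without any 1 of their 5 libraries.

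Between the tissues 15.5% of all genes were called in GFP-positive cells (median log2 difference -0.03) and 18.6% in GFP-negative cells (median -0.02). The 14 genes of the corticosterone synthesis list are not all makers of that hormone. They include Cyp11b2, the aldosterone synthase, Nr0b1, a repressor of steroid synthesis, and Hsd3b6, which is also among the zona glomerulosa markers. They were higher in cortical than in medullary GFP-positive cells in 12 cases and in none lower (median log2 difference 1.29). In GFP-negative cells 9 were higher and none lower (median 1.33). Without medullary GFP-negative library 2 there were 2 calls in GFP-negative cells, where 6.28% of all genes were called. Cyp11b1, which makes corticosterone, stood at 1404 ± 104 CPM in cortical and 309 ± 36.1 CPM in medullary GFP-negative cells (edgeR adjusted p = 0.000376). Between the gates, GFP-positive cells had 4 of the 14 higher and 3 lower in the cortex (list median 0.24), where 14.7% of all genes were called. In the medulla 6 were higher and 4 lower (list median 0.13), where 21.4% of all genes were called. Of 18 clock genes, GFP-positive cells had 3 higher and 1 lower in the cortex, and 4 higher and 1 lower in the medulla, where 14.7% and 21.4% of all genes were called. The clock list's median was 0.31 in the cortex and 0.56 in the medulla, against 0.03 and 0.09 over all genes. Per2, named as a paralog of Per1 and not the clock gene of largest change, was higher in both (log2 difference 1.06, SE 0.264, edgeR adjusted p = 0.0232, and 1.28, SE 0.305, adjusted p = 0.0139). Per1 was lower in the medulla and not called in the cortex. Between the tissues the cortex had 1 clock gene higher and 2 lower in the GFP-positive gate (list median 0.26), and 2 higher and 1 lower in the GFP-negative gate (list median 0.21). The clock list had 0 to 2 calls between the cortical gates without any 1 of the 6 cortical libraries, and 1 or 2 between the medullary gates without either medullary GFP-negative library. Between the tissues it had 1 call in GFP-positive cells without library 1 or 3 of either tissue, and 0 or 1 in GFP-negative cells without any 1 library other than medullary GFP-negative library 1.

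Over the 11 libraries, which fall into 4 groups so that group differences set most of any likeness, the genes most like the members in log2(CPM + 1) were sought among 11950 tested genes with a mean of at least 5 CPM. Nr3c1 was most like Gnb3 (Pearson r = 0.982), Stom (0.98) and Bmyc (0.972). Fkbp5 was most like Plekha1 (r = 0.987), H3f3b (0.979) and Ldoc1 (0.968), and Tsc22d3 like Ivns1abp (0.976), Zfp36 (0.973) and Ptma (0.972). Zfp36 is also 1 of the dissociation stress genes. Nr3c2 was most like Rab6b (r = 0.943), Hsd11b1 like Ogn (0.979) and Per1 like Arid1a (0.94). Sgk1 was most like Ppp4r1 (r = 0.963), Pid1 (0.959) and Ikbkb (0.958), Zbtb16 like Crabp1 (0.963), Zfp354c (0.957) and Zdbf2 (0.957), and Angptl4 like Fdps (0.967), Stx11 (0.966) and Col20a1 (0.959). Among the members, r was 0.94 for Nr3c1 with Fkbp5, 0.91 for Fkbp5 with Per1 and -0.88 for Sgk1 with Angptl4. These values describe 11 libraries that share their groups, and no test was made of them.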

How the data were processed

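Sorted cells gave 11 RNA-seq libraries. For each gene the authors deposited its length and its raw read count, a whole number, in every library. The authors also deposited 3 tables with log2 fold changes and with p-values and adjusted p-values, per the file headers, beside 17 normalized columns that were not used. DESeq2 1.18.1, featureCounts 1.6.0, GSNAP, bcl2fastq 2.19.1 and the build mm10 are listed, without their roles, in the submitters' processing notes. Libraries were grouped by their titles. The 92 spike-in sequences, with 10 counts, were left out.

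The test was that of edgeR 4.0.16 under R 4.3.3 (filterByExpr, TMM scaling, quasi-likelihood test, all 11 libraries in 1 fit, 7 residual degrees of freedom, Benjamini-Hochberg over 20893 genes, threshold 0.05). The SE was derived from each log2 difference and its F statistic. CPM use TMM-scaled library sizes, and CPM per kb divide by the deposited length. Alternatives were total counts, DESeq2 1.42.0, limma-voom (limma 3.58.1), no filter, only the groups compared, replicate number or age as a factor, older mice only, and each library left out. Tested on counts simulated for the cortical gates (20009 genes), the fit called 12% of 100 genes changed by a log2 of 1, 64% of 100 changed by 2 and 0% of 19809 unchanged ones. The changed genes were drawn from those with higher counts. In the data 14.7% of all genes were called between the cortical gates. The adjusted p depends on how many genes change, so the simulated rates do not carry over to the data. Every pair of libraries within a group differed beyond sampling noise, with a chi-square of 29.1 to 104 per degree of freedom.

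All 10 members are named. Pathway lists are given by counts and median, with up to 3 called genes of largest change a comparison, of which 1 is not reported here. Likeness was computed for members with a mean of at least 1 CPM. Putting list genes with no count in a group at their bound (against 3 counts over the group) moved no list median. The members and lists were chosen with earlier results of these data known.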

Additional observations from a re-analysis of the deposited data

Results flagged for a closer look

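The effect of the gate differed between the tissues, by a test of the difference itself (edgeR interaction, cortical minus medullary log2 difference), for 1 member and 5 genes of the pathway lists, where 1.61% of all genes tested were called. Sgk1 had a value of 1.16 (SE 0.24, edgeR adjusted p = 0.0454), since it was 2.84-fold lower in medullary GFP-positive than GFP-negative cells and 1.28-fold lower, without passing the test, in the cortex. Rgs2, a regulator of G protein signalling among the glucocorticoid-induced genes, had 1.87 (SE 0.211, adjusted p = 0.00776). Of the corticosterone synthesis list, Cyp11b2, the aldosterone synthase, had 4.50 (SE 0.742, edgeR adjusted p = 0.0261) and Nr0b1, a repressor of steroid synthesis, 5.83 (SE 1.11, adjusted p = 0.0356). Both were lower in GFP-positive cells of both tissues. The log2 differences in cortex and medulla were -3.94 and -8.44 for Cyp11b2 and -2.67 and -8.49 for Nr0b1. In medullary GFP-positive cells Cyp11b2 stood at 1.29 ± 1.39 CPM (SD, n = 3). Nr0b1 stood there at a mean of 0.0172 CPM, below the 0.0446 CPM of 3 counts over that group, so its size is poorly measured. Of the sodium transport list, the kinase Wnk1 had 1.19 (SE 0.218, adjusted p = 0.031) and the sodium pump subunit Atp1b1 -1.51 (SE 0.315, adjusted p = 0.0461). With libraries of the older mice only, 0 of 21684 genes were called in edgeR's interaction, so that none of these 6 was (3 of the 10 members had an unadjusted p below 0.05, and DESeq2 and limma-voom were not run on these libraries). Over all genes 337 were called, against 56 without medullary GFP-negative library 2, and 74, 60 and 80 without cortical GFP-negative library 1, 2 and 3. Of 18 alternatives Rgs2 was called under 17, Cyp11b2 under 11, Wnk1 and Nr0b1 under 6 each, Atp1b1 under 5 and Sgk1 under 4. The highest adjusted p over the alternatives was 0.142 for Rgs2, 0.0822 for Cyp11b2, 0.364 for Wnk1, 0.173 for Nr0b1, 0.234 for Atp1b1 and 0.382 for Sgk1.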

How the results depend on the processing

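Depth limits Hsd11b2 (120 counts) most. The share of all genes called moved with the setting as well. With 1 library other than a medullary GFP-negative one left out, 9.44% to 15.9% of all genes were called between the cortical gates. The share was 17.5% to 21.2% between the medullary gates, 9.78% to 14.5% between GFP-positive cells and 10.3% to 19.7% between GFP-negative cells. In the interaction it was 0.289% to 1.28%. Without medullary GFP-negative library 1, the share was 15% between the medullary gates, 16.5% between GFP-negative cells and 2.16% in the interaction. Without library 2 of that group it was 13.1%, 6.28% and 0.249%. Between the cortical gates it was then 13.9% and 14%, and between GFP-positive cells 14.8% and 15%. Between the cortical gates 2 members were called, and 1 with total counts alone and 1 with the replicate block, with 1 to 2 when 1 library was left out. Between the medullary gates 5 were called, 3 in older mice only, and 4 to 5 when 1 library was left out. Between GFP-positive cells 5 were called, 3 in older mice only, and 4 to 5 with 1 library left out. Between GFP-negative cells 6 were called, and 4 to 6 with 1 library left out. For the interaction 1 was called, 2 with DESeq2, and 0 with total counts, the replicate block, age as a factor or older mice only (edgeR, 3 to 5 members at an unadjusted p below 0.05), with 0 to 1 when 1 library was left out. Total counts moved the median of all genes in the interaction from -0.02 to -0.19. Of all genes, 15.7% were called between the cortical gates with total counts and 13.5% with the replicate block. In the interaction 8.86% were called with DESeq2, 1.88% with total counts, 0.842% with the replicate block and 0.445% with age as a factor. There, with every library, between 7.56% and 19.8% of all genes had an unadjusted p below 0.05. That share was not worked out for the alternatives. The sign turned for Fkbp5 in the cortical gates (0.02 without cortical GFP-positive library 3, 0.01 without cortical GFP-negative library 2) and for Per1 there (0.25 without cortical GFP-negative library 2). It also turned for Nr3c2 in the medullary gates (-0.13 without medullary GFP-negative library 1) and between GFP-negative cells (0.30 without medullary GFP-negative library 2), and for Nr3c1 in the interaction (-0.09 with total counts). With 1 library left out these ranged from -0.24 to 0.02 for Fkbp5, from -0.57 to 0.25 for Per1, and for Nr3c2 from -0.13 to 2.07 in the medullary gates and from -1.90 to 0.30 between GFP-negative cells. Causes were not tested. Of the alternative values of single members, 781 kept direction and side of the threshold, 46 lost and 8 gained a call, and 6 turned sign.

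Replicate numbers were not shown to pair libraries. Deviations from group means of same-numbered libraries correlated at 0.095, 0.114 and 0.052 in the cortex and at 0.054, 0.047 and 0.085 between GFP-positive cells. Each library in these 2 comparisons correlated best with its own number. The values were 0.028 and -0.014 between the medullary gates and 0.085 and 0.022 between GFP-negative cells. With only 2 medullary GFP-negative libraries, their deviations mirror each other, so these values say little on pairing. Library 2 came from younger mice in medullary GFP-positive cells and from older mice in the other groups. Number 2 thus cannot mark the same mice in all groups, and the replicate block joins libraries of different mice there. With the replicate block 5 members were called between the medullary gates, 4 between GFP-positive and 5 between GFP-negative cells. Of all genes 19.1%, 13.9% and 16% were called in these comparisons with that block.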
